A study of Homo sapiens with 3 samples.

Results

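The genes described here encode the extracellular matrix of HepG2 cells together with the enzymes that build and cut it: collagens, laminin chains, basement membrane linkers, matrix glycoproteins, proteoglycans, matrix metalloproteinases, their tissue inhibitors, and collagen-modifying enzymes. They were chosen by name. Of 54 listed genes, 53 had a probe carrying their symbol in the platform annotation, out of 17559 named genes on the array, and the brightest of a gene's probes stood for it. HepG2 is an established human liver tumour line. Cells received 1 of 3 siRNA reagents at 10 nM, and RNA was taken 72 h later. A negative control siRNA served as the reference, the second reagent was aimed at villin (gene VIL1), which bundles actin in microvilli, and the third at PTK7, a transmembrane pseudokinase with roles in Wnt signalling and planar cell polarity. The arrays are called the control array, the villin array and the PTK7-labelled array. All 3 groups shared the line, the transfection reagent RNAiMAX and the time. A pair of villin reagents is named in the treatment protocol (s14792 and s14797), without a statement of which one the array represents, and s11490 is named for PTK7. There was 1 array per group, so no difference has a replicate check and none was tested for significance. Every value describes these 3 arrays, and the number of arrays limits its precision.

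A basement membrane is built from laminin trimers, each of an alpha, a beta and a gamma chain, and from a network of type IV collagen, which nidogens, perlecan and agrin tie together. Interstitial matrix instead rests on fibrillar collagens, fibronectin and small proteoglycans. In the liver most fibrillar collagen comes from stellate cells and fibroblasts, while hepatocytes secrete fibronectin. Matrix metalloproteinases cut these proteins, and tissue inhibitors of metalloproteinases (TIMPs) bind and block them.

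Between 90.2% and 92.1% of 24460 probes were above background on an array. The authors' deposited intensities, in which every array has a median of 25 units, are used below for levels. Differences are log2 differences of normalised scanner values, whose correction pulls the differences of dim probes towards 0. VIL1 was at 924 units on the control array, at 129 after villin siRNA and at 1084 on the third array. The single PTK7 probe was dim, at 14, 25 and 12 units, and its normalised log2 difference from the control array was -0.05 on the PTK7-labelled array. The knockdown of PTK7 was thus not seen against the control array, and the name of that array repeats its label only. Differences also followed the place of a spot on the slide, so values are repeated after dividing out the local deviation around a spot, here called position scaling.

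Of the 53 genes, 25 lay above 25 units on all 3 arrays and 19 lay under 10 units on all 3. Above 500 units on all 3 arrays were 10 genes, those of fibronectin, osteopontin, TGFBI, the laminin chains LAMA5 and LAMB1, agrin, collagen XVIII, TIMP1, TIMP3 and the lysyl hydroxylase PLOD1. The listed fibrillar collagens and metalloproteinases were dim throughout. COL1A2 and POSTN had no value (null) on any of the 3 arrays, and 3 more genes had none on some arrays. LUM, a small proteoglycan, was null on the control and PTK7-labelled arrays, MMP9 on the villin array, and LOXL1 on the control and villin arrays. The brightness of different probes is no measure of the relative amount of their transcripts.

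**Figure D1:**
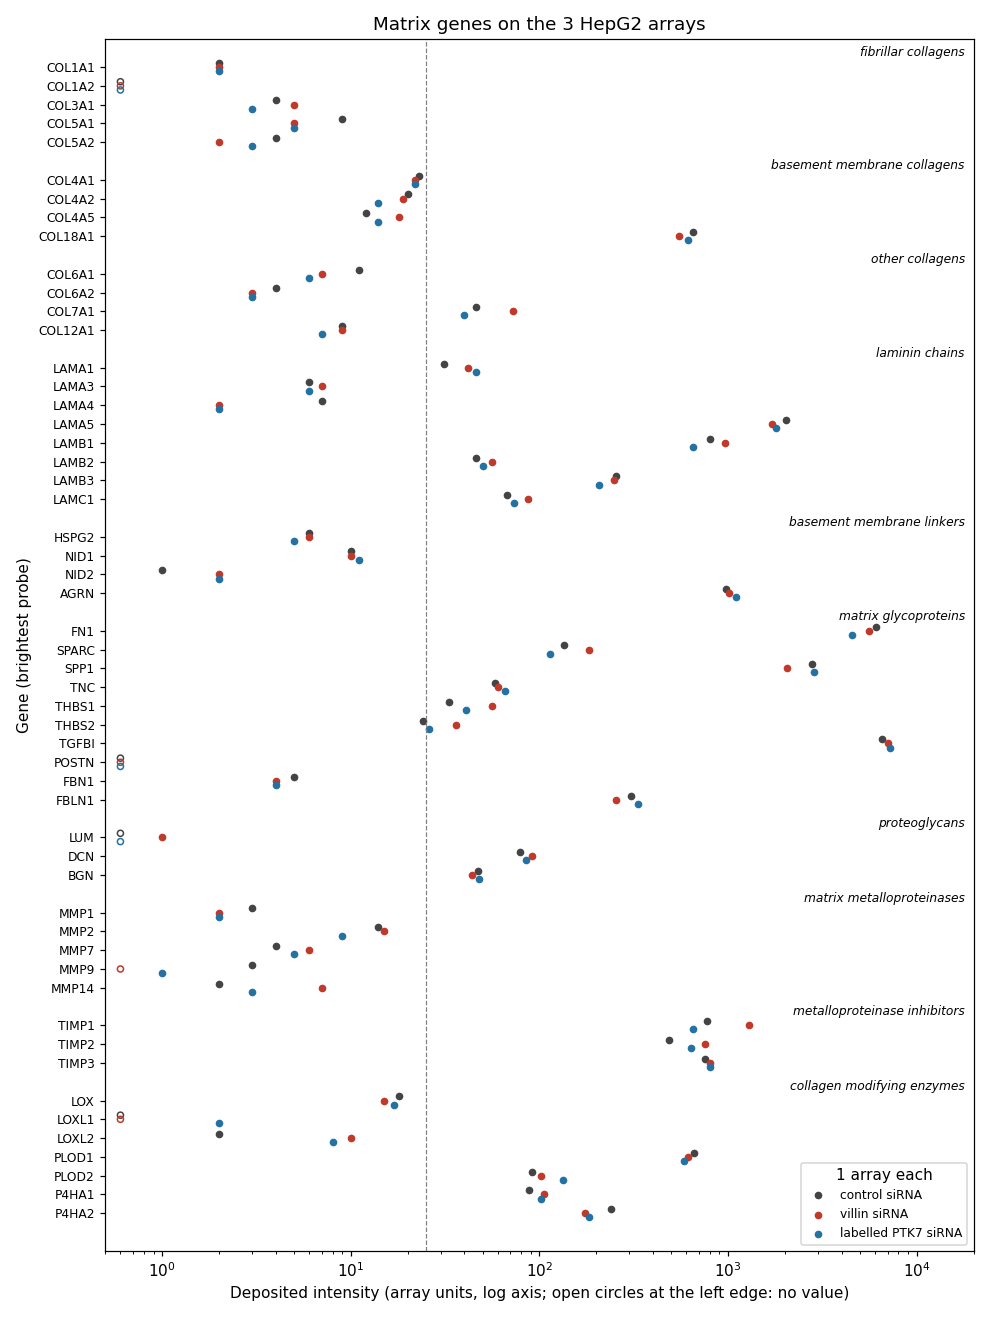
Deposited intensity (array units, log axis) of the brightest probe of each of the 53 matrix genes, 1 point per array, grouped by role, with the array median of 25 units as a dashed line and missing values as open circles at the left edge. For most genes the 3 points lie close together, while TIMP1 stands out at 1284 units on the villin array against 776 and 650.

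The listed fibrillar collagens, the rope-forming collagens of scar and stroma, were near the limit of detection. COL1A1, a chain of type I collagen, was at 2 units on each of the 3 arrays. COL3A1 was at 4, 5 and 3 units, COL5A1 at 9, 5 and 5, and COL5A2 at 4, 2 and 3 (control, villin and PTK7-labelled array, the order used throughout). These are differences of a few units, and in normalised values the 4 detected genes lay between -0.12 and 0.03 on the villin array and between -0.14 and -0.01 on the PTK7-labelled array.

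Type IV collagen, the sheet-forming collagen of basement membranes, was detected but dim. COL4A1 was at 23, 22 and 22 units and COL4A2 at 20, 19 and 14, so the levels of COL4A1 on the 3 arrays were within 1 unit of each other. These genes lie head to head on chromosome 13, and RefSeq places 126 bases between their start sites. That stretch is shown because both transcripts start at its ends. Its position is chr13:110307158-110307283 in GRCh38.p14, on the strand of COL4A2. Capitals mark 1 CCAAT box (CCAAT) and 1 GC box (GGGCGG), each searched on both strands.
COL4A1-COL4A2: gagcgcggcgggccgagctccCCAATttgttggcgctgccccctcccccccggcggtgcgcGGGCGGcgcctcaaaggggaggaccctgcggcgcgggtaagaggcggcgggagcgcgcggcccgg
COL4A5, a chain of another type IV network, was at 12, 18 and 14 units, with a normalised log2 difference of 0.14 on the villin array.

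Among the listed collagens, COL18A1, the precursor of endostatin and a collagen of basement membranes, was the one with bright probes. Its brighter probe was at 649, 550 and 612 units, and its log2 differences were -0.20 on the villin array and -0.05 on the PTK7-labelled array. A second probe, at 539, 514 and 554 units, gave -0.06 and 0.05. COL7A1, which forms the anchoring fibrils below epithelia, was the only other listed collagen above 25 units, at 46, 72 and 40. It was highest on the villin array, by 0.36 on the log2 scale against the control array (0.36 after position scaling) and by 0.45 against the PTK7-labelled array. The microfibrillar COL6A1 and COL6A2 and the fibril-associated COL12A1 were at or under 11 units. Some collagens outside the set were above 25 units too, such as COL9A3 at 721, 825 and 614 and COL16A1 at 261, 200 and 207. On the PTK7-labelled array 0 of 4 fibrillar collagens, 1 of 4 basement membrane collagens and 0 of 4 other collagens had a log2 difference above 0, and none lay below -0.14 on the rounded log2 scale. Over all genes 7421 of 15775 lay above 0 there. After position scaling 2 of 4 basement membrane collagens were above 0, and their median turned from -0.040 to 0.014.

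By the brightest probe of each gene, 6 of 8 laminin chains were above 25 units on all 3 arrays. The alpha chain LAMA5 was at 2029, 1709 and 1793 units and the beta chain LAMB1 at 805, 959 and 655. The gamma chain LAMC1, shared by most laminins, was at 67, 87 and 73 units. The arrays therefore held a detected chain of each type. LAMB1 was highest on the villin array and lowest on the PTK7-labelled array, with a log2 difference of 0.52 between these arrays, of 0.28 for the villin array against control and of -0.24 for the PTK7-labelled array against control. After position scaling these values were 0.23, 0.38 and 0.15.

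Several values of the other laminin chains depended on the scaling. LAMB3, a chain of epithelial laminin, was at 256, 248 and 208 units. Its log2 difference from control was -0.26 on the PTK7-labelled array (-0.17 after position scaling) and -0.065 on the villin array (0.056 after scaling). LAMB2 was at 46, 56 and 50 units, with a second probe at 4 on all 3 arrays. LAMA1, the alpha chain of early embryonic laminin, was at 31, 42 and 46 units, and its log2 differences from control of 0.17 and 0.28 became -0.04 and 0.02 after position scaling. A second LAMA1 probe was at 2 units on the control array and had no value on the others, so it did not match the brighter one. LAMA3, at 6, 7 and 6 units, and LAMA4, at 7, 2 and 2 units, were dim. The 8 chains had a median log2 difference of 0.084 on the villin array, with 5 above 0 (0.093 and 6 after position scaling). Their median on the PTK7-labelled array was -0.053, with 4 above 0, and turned to 0.052, with 6 above 0, after scaling. Of all genes, 7193 of 15907 on the first and 7421 of 15775 on the second lay above 0 before scaling, and 7297 and 7677 after it. LAMA5 turned direction: its log2 differences from control were -0.22 and -0.14 in normalised values and 0.28 and 0.47 after position scaling.

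Of the basement membrane linkers only agrin (AGRN), a heparan sulfate proteoglycan that binds laminin, was bright, at 974, 1015 and 1095 units. Its log2 differences from control were 0.092 on the villin array and 0.20 on the PTK7-labelled array, and -0.079 and 0.086 after position scaling. Perlecan (HSPG2) was at 6, 6 and 5 units, NID1 at 10, 10 and 11 and NID2 at 1, 2 and 2. Log2 differences of these 3 dim genes lay between -0.06 and 0.05 in both comparisons with the control array.

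Among the matrix glycoproteins several probes were very bright. Of the 9 with values on all 3 arrays, 4 had a log2 difference above 0 on the villin array and 6 on the PTK7-labelled array, which became 5 and 4 after position scaling. The median of the latter array turned from 0.094 to -0.030. TGFBI, a collagen-binding protein induced by TGF-beta, was at 6556, 7032 and 7258 units. Its log2 differences from control were 0.20 and 0.27, and -0.15 and -0.21 after position scaling, so the direction depended on the scaling. A second TGFBI probe, far dimmer at 73, 124 and 76 units, gave 0.51 and 0.03, and 0.68 and 0.35 after scaling. The probes of TGFBI therefore disagreed: the dimmer one lay highest on the villin array and the brighter one did not.

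Fibronectin (FN1), the main adhesive glycoprotein of plasma and matrix, was at 6119, 5556 and 4559 units. It was lowest on the PTK7-labelled array, by -0.31 on the log2 scale against control, while the villin array lay at -0.04. After position scaling these values were 0.22 and 0.48, both above 0. The spot lies in slide row 10 of its block, where the local deviation from the control array was -0.50 on the villin array and -0.51 on the PTK7-labelled array.

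Osteopontin (SPP1), a secreted integrin ligand, was at 2768, 2057 and 2839 units. It was lowest on the villin array, with log2 differences of -0.33 against control and -0.44 against the PTK7-labelled array. After position scaling the first became 0.00 and the second -0.42. SPARC, a collagen-binding matricellular protein, was at 135, 184 and 113 units, highest on the villin array by 0.33 against control and by 0.53 against the PTK7-labelled array (0.14 and 0.46 after scaling).

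Thrombospondin 1 (THBS1), which binds and activates latent TGF-beta, was at 33, 56 and 41 units, with a log2 difference of 0.37 on the villin array (0.40 after scaling) and 0.17 on the PTK7-labelled array. THBS2 was at 24, 36 and 26 units. Both thrombospondins were highest on the villin array. Fibulin 1 (FBLN1), an elastic fibre and basement membrane protein, was at 307, 255 and 331 units, with -0.26 on the villin array and 0.09 on the PTK7-labelled array. A second probe, at 81, 74 and 87 units, gave -0.14 and 0.06. After position scaling the brighter probe was at -0.25 and -0.060 and the second at -0.16 and 0.089, so on the PTK7-labelled array the probes then differed in direction. Tenascin C (TNC) was at 58, 60 and 66 units, but a second TNC probe was at 1 unit on the villin array and had no value on the others. The microfibril protein FBN1 was at 5, 4 and 4 units.

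The small proteoglycans decorin (DCN) and biglycan (BGN), which bind collagen fibrils, were at 79, 91 and 85 and at 47, 44 and 48 units. A second decorin probe was at 1, 2 and no value, so the brighter probe was not matched by the other. Versican (VCAN), a large proteoglycan, was not among the 53 genes, since the platform annotation carries only its older symbol CSPG2. That probe was at 54, 133 and 99 units, with log2 differences from control of 0.86 and 0.57. After position scaling they were 0.30 and 0.05. It lies in row 1 of block 24, and the part of slide position in these values was not tested.

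The 5 listed matrix metalloproteinases were all dim. The interstitial collagenase MMP1 was at 3, 2 and 2 units, the gelatinases MMP2 and MMP9 at 14, 15 and 9 and at 3, no value and 1, matrilysin (MMP7) at 4, 6 and 5, and the membrane-anchored MMP14 at 2, 7 and 3. None of these 5 reached 25 units on any array. The normalised log2 differences of those detected lay between -0.15 and 0.14 in both comparisons with the control array. Outside the set some were brighter, such as MMP11 at 63, 49 and 57 units and MMP3 at 18, 44 and 15. For MMP9 on the villin array only a bound can be given, at least 1.06-fold higher on the control array in normalised values. The size of this bound depends on the correction, which pulls differences of dim probes towards 0.

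The 3 listed metalloproteinase inhibitors were bright. TIMP1 and TIMP2 were the genes of the set with the largest differences between the villin and control arrays. TIMP1, a secreted inhibitor of most metalloproteinases, was at 776, 1284 and 650 units. The villin array was highest, and the control array lay above the PTK7-labelled array. Relative to the control array TIMP1 was 1.68-fold higher on the villin array in normalised values, a log2 difference of 0.75, and 1.85-fold higher after position scaling. On the PTK7-labelled array its log2 difference was -0.20, and 0.14 after scaling. TIMP1 ranked 126 from the top among 15907 genes detected on the villin siRNA and control arrays.

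TIMP2, which also takes part in the activation of pro-MMP2 at the cell surface, was at 484, 750 and 635 units. Here the control array was lowest and the PTK7-labelled array lay between the others. TIMP2 was 1.54-fold higher on the villin array (log2 difference 0.63) and 1.66-fold higher after position scaling. On the PTK7-labelled array the log2 difference was 0.38, and 0.32 after scaling. TIMP3, which is held in the matrix, was at 756, 797 and 797 units, with log2 differences of 0.12 and 0.10 (0.23 and 0.35 after scaling). Each TIMP was measured with 1 probe.

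The 250 bases upstream of the RefSeq start sites of TIMP1 and TIMP3 (GRCh38.p14) are shown. Of the 3 listed inhibitors, TIMP1 differed most between the villin and control arrays and TIMP3 least. Both strands were searched for the GC box and CCAAT box letters given above. They were also searched for the AP-1 letters TGANTCA. The fourth search was for the TATA box, written TATAAA. Capitals mark the matches, which on the opposite strand read CCGCCC and ATTGG. The TIMP1 stretch is chrX:47582186-47582435 and the TIMP3 stretch chr22:32801455-32801704, both on the plus strand.
TIMP1: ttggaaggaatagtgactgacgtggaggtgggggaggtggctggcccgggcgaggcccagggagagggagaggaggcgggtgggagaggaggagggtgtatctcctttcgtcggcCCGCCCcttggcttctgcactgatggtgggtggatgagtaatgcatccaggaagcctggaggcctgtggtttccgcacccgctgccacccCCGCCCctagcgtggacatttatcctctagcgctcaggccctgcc
TIMP3: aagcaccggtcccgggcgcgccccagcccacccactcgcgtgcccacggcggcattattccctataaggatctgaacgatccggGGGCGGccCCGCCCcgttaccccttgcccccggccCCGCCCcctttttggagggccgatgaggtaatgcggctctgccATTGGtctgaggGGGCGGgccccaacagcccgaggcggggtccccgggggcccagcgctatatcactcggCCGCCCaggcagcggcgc
The TIMP1 stretch held 2 GC boxes, and that of TIMP3 held 5 GC boxes and 1 CCAAT box. Neither held an exact match to the AP-1 or TATA letters. The TIMP1 stretch does hold tgagtaa, which differs from TGANTCA in 1 letter and was not counted. Variants of the letters were not searched, so the absence of a match is not the absence of a site. Of 35116 promoters of this length, 42.6% held a GC box, 32.0% a CCAAT box, 10.7% the TATA letters and 6.57% the AP-1 letters. A match is a description of the letters only.

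The collagen-modifying enzymes include hydroxylases, which act on procollagen inside the cell, and lysyl oxidases, which act outside it. The lysyl hydroxylase PLOD1 was at 661, 614 and 582 units. PLOD2, the hydroxylase of collagen telopeptides, was at 91, 102 and 134 units, highest on the PTK7-labelled array, by 0.40 against control (0.34 after scaling), with 0.07 on the villin array. Among the prolyl hydroxylase subunits P4HA1 was at 88, 106 and 102 units. P4HA2 was at 240, 175 and 182 units, lower on both siRNA arrays by -0.41 and -0.34 on the log2 scale, which became -0.12 and -0.13 after position scaling. Of the lysyl oxidases, which crosslink collagen, LOX was at 18, 15 and 17 units and LOXL2 at 2, 10 and 8.

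**Figure D2:**
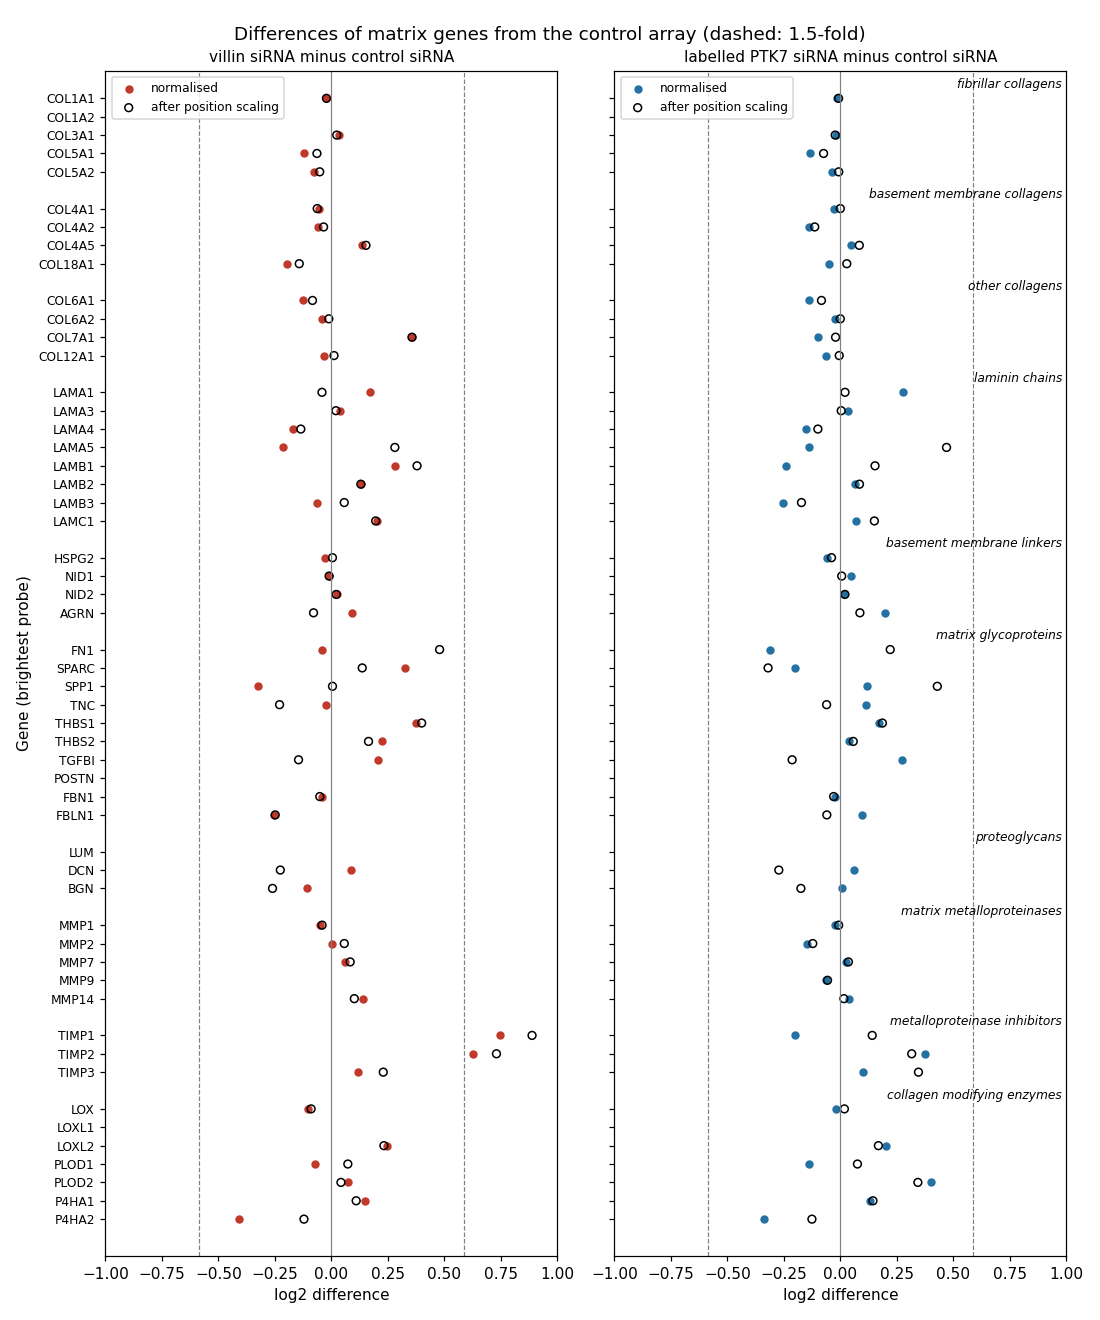
Log2 difference of each matrix gene from the control array for the villin array (left) and for the PTK7-labelled one (right), as normalised (filled) and after position scaling (open), 1 array per group, with dashed lines at 1.5-fold. TIMP1 and TIMP2 are beyond 1.5-fold on the left under both scalings, no gene is on the right, and genes such as FN1, LAMA5, SPP1 and TGFBI move across or onto 0.

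Setting the villin array against the control array addresses which transcripts differ after villin siRNA. Among the matrix genes it showed higher TIMP1 and TIMP2 and little else beyond 1.5-fold. A count was made of differences of at least 1.5-fold. It held 2 of the 48 genes detected on both arrays (4.17%) as higher and 0 as lower, while 2.12% of all 15907 genes lay beyond 1.5-fold in either direction, 1.6% higher and 0.522% lower. At 2-fold the count was 0, against 0.308% of all genes. Both genes were above the median level of all genes, where 2 of 25 matrix genes and 4.14% of 7848 genes lay beyond 1.5-fold. These shares rest on 2 genes. The median of the list's log2 differences was -0.0041, against -0.011 for all genes, with 24 genes above 0 and 24 below. After position scaling the same 2 genes passed, against 1.27% of all genes, and the median was 0.015. Beyond a log2 difference of 0.3 in size, a limit chosen after the values were seen, lay 7 of 48 genes (14.6%; 11.3% of all genes): TIMP1, TIMP2, THBS1, COL7A1 and SPARC were higher, and SPP1 and P4HA2 were lower.

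In the authors' deposited intensities, which have no offset, 4 of the 25 genes above 25 units on both arrays passed 1.5-fold as higher on the villin array and 0 as lower, against 7.9% of all such genes (5.8% higher, 2.1% lower). They were COL7A1, THBS1, TIMP1 and TIMP2, with ratios of 1.57, 1.70, 1.65 and 1.55. Among dimmer probes, ratios such as those of LOXL2 (10 over 2 units) and MMP14 (7 over 2 units) rest on a few units. With no limit on brightness, 10 of 48 genes were higher and 5 lower by at least 1.5-fold, against 16.3% of all genes (10.7% higher, 5.61% lower). On the PTK7-labelled array 0 of 25 genes above 25 units passed in these intensities, against 5.42% (3.66% higher, 1.76% lower). Without that limit 3 of 49 were higher and 6 lower, among them COL5A1, COL6A1 and LAMA4, against 16.2% (7.71% higher, 8.5% lower).

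**Figure D3:**
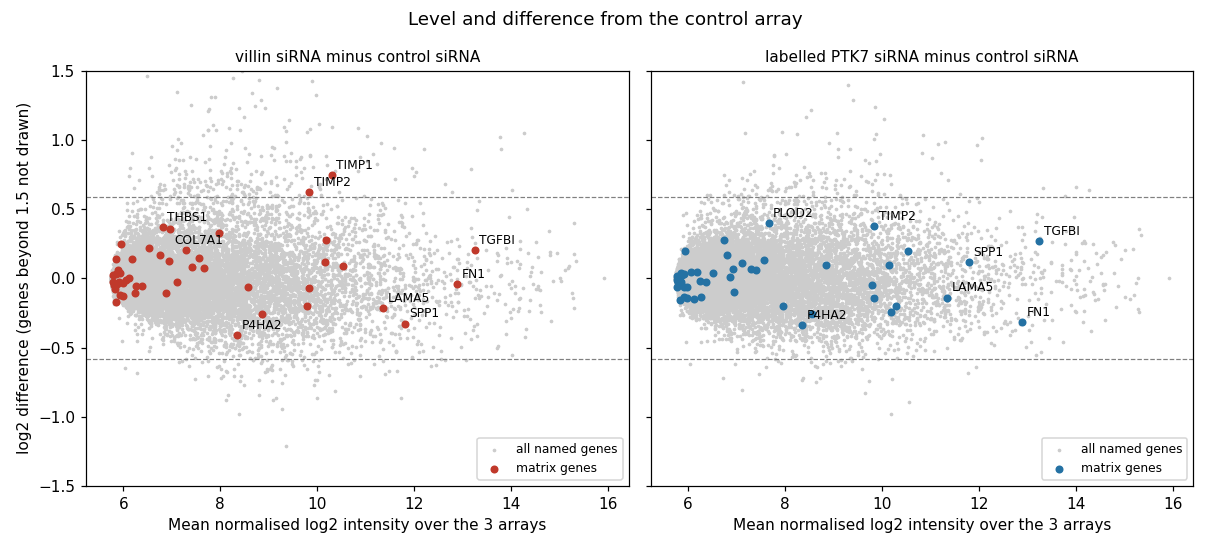
Log2 difference from the control array against the mean normalised log2 intensity over the 3 arrays, for all named genes detected on both arrays (grey) and the matrix genes (coloured), 1 array per group, with dashed lines at 1.5-fold. On the left TIMP1 at 0.75 and TIMP2 at 0.63 lie above the dashed line, as do grey points of similar level, and on the right no matrix gene crosses a line.

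The same question for the reagent against PTK7 is addressed by the PTK7-labelled array and the control array. No matrix gene stood out in it. Of the 49 genes detected on both, 0 passed 1.5-fold in either direction, against 1.03% of 15775 genes (0.818% higher, 0.216% lower). At 2-fold, 0.12% of all genes passed. These counts of 0 have no test behind them. Among genes above the median level 0 of 25 matrix genes passed, against 2.04%. The largest differences were PLOD2 at 0.40 and TIMP2 at 0.38, and P4HA2 at -0.34 and FN1 at -0.31. The median was -0.019, against -0.0069 for all genes. After position scaling the count was again 0, against 0.177% of all genes, and the largest value was LAMA5 at 0.47. This comparison and the one above share the control array, so a like direction in both, as for TIMP2 and P4HA2, can come from that array alone.

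The villin array and the PTK7-labelled array were also set against each other, without the control array. TIMP1 was 1.93-fold higher on the villin array (log2 difference 0.95, and 0.75 after position scaling) and ranked 12 from the top of 15947 genes. It was the only one of 48 matrix genes at least 1.5-fold apart (2.08%), against 0.658% of all genes (0.489% higher, 0.169% lower), and 0 were lower. Above the median level 1.24% of all genes passed, after position scaling 0.564% of all genes, and at 2-fold 0 matrix genes against 0.0564%. TIMP2 differed by 0.25. SPARC (0.53), LAMB1 (0.52) and COL7A1 (0.45) were next above 0, and SPP1 (-0.44), FBLN1 (-0.35) and PLOD2 (-0.33) lay below. In the deposited intensities COL7A1, SPARC and TIMP1 passed 1.5-fold as higher among 26 genes above 25 units, against 2.31% of all such genes (1.69% higher, 0.619% lower). Without that limit 6 of 48 were higher and 1 lower, against 9.62% (7.0% higher, 2.61% lower). The median of the 48 genes was 0.016, against -0.0043 for all genes.

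Over the 3 arrays the 25 brighter genes varied by a median of 1.30-fold between the highest and the lowest deposited intensity, against 1.22-fold for all 8481 genes of this kind. The range ran from 1.05-fold for TIMP3 to 1.98-fold for TIMP1. The spread reached 1.5-fold in 5 genes, TIMP1, COL7A1, THBS1, SPARC and TIMP2, which were all highest on the villin array, and 11.1% of all such genes reached it. Of the 25 genes, 11 were highest on the villin array, 8 on the PTK7-labelled array and 6 on the control array. TIMP3, equal at 797 units on the villin and PTK7-labelled arrays, was counted under the villin array. Of all genes of this kind, 33.9%, 24.3% and 41.8% were highest on these arrays in the same order, with each tied gene likewise placed on 1 array only.

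The matrix genes were unevenly placed on the slide. Of the 53 spots, 33 (62.3%) lie in rows 1 and 2 of the 10 probe rows of a block, against 23.5% of all named genes, and 8 lie in blocks 19 to 24. At 11 spots the surroundings of the villin array deviated from those of the control array by at least 0.3 on the log2 scale. For the PTK7-labelled array this held at 14 spots. Over all probes the 1st and 99th percentiles of this deviation were -0.41 and 0.77 on the villin array. They were -0.52 and 0.85 on the PTK7-labelled array. Position scaling turned the direction of 11 of the 48 genes in the villin comparison and of 12 of the 49 in the other. No share over all genes was taken for the blocks, the deviations or the turns. Those counts therefore describe the matrix genes only. The local deviation of the villin array from the control array was -0.15 at the TIMP1 spot and -0.087 at the TIMP2 spot. Between the villin and PTK7-labelled arrays it was 0.23 at the TIMP1 spot and -0.17 at the TIMP2 spot. The part of slide position in the TIMP differences was not tested.

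**Figure D4:**
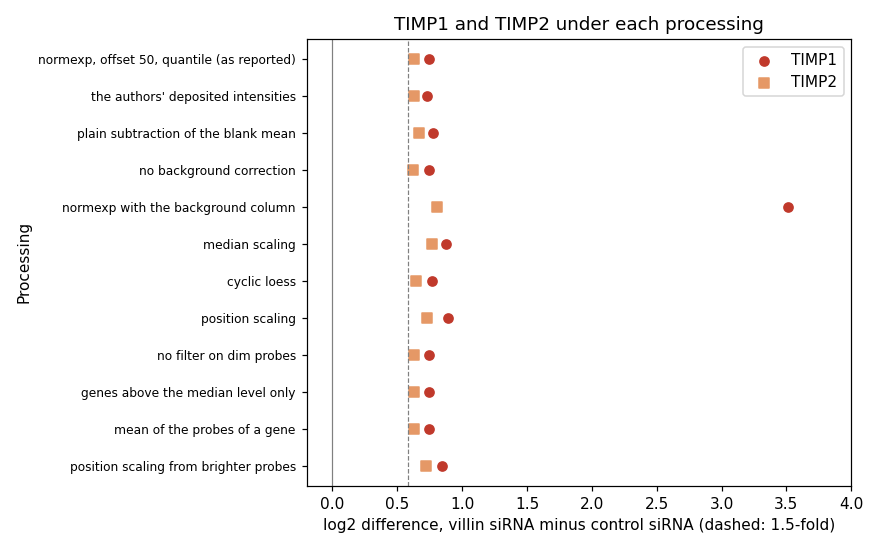
Log2 difference of TIMP1 (circles) and TIMP2 (squares) between the villin array and the control array under each way of processing the same scanner files, with a dashed line at 1.5-fold. All values lie at or above 0.62. The filters on dim probes and the mean of probes could not alter these single bright probes. The background column of the scanner, which follows the spot signal, puts TIMP1 at 3.51 and TIMP2 at 0.81.

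Other matrix genes were read from a list of 80 further collagens, laminins, proteases and modifying enzymes, of which 79 had a probe. On the villin array 0 of the 70 detected genes were at least 1.5-fold apart from the control array, against 2.12% of all genes, and the median was 0.0045. The stromelysin MMP3 was at 18, 44 and 15 units, with a log2 difference of 0.50 (0.62 after position scaling, where it passed 1.5-fold). The laminin-related NTN4 lay at 0.54 and the procollagen proteinase enhancer PCOLCE at -0.45 (0.51 and -0.24 after scaling), both named after their values were seen as the ends of the range. None of the 70 detected on the PTK7-labelled array passed, against 1.03% of all genes.

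Among 23 receptors that bind matrix, 4 of 21 detected genes were higher by at least 1.5-fold on the villin array and 0 lower, relative to the control array, against 1.6% and 0.522% of all genes. They were the integrin subunit ITGA2 of collagen and laminin receptors, at 111, 316 and 224 units (log2 difference 1.23), the common beta subunit ITGB1 (1.12), the syndecan SDC4, at 258, 579 and 525 units (1.07), and ITGAV (0.83). The same 4 were the ones past 1.5-fold on the PTK7-labelled array, at 0.80, 0.76, 0.94 and 0.66, with the control array shared and 1.03% of all genes past it. After position scaling ITGA2 (0.80) and ITGB1 (0.59) remained past 1.5-fold on the villin array, joined by the laminin receptor subunit ITGA6 (0.72), against 1.27% of all genes. After scaling 0 passed on the PTK7-labelled array, against 0.177% of all genes. The receptors ITGB1 and SDC4 lie in block 24 and ITGAV in block 23, and the part of slide position in their differences was not tested.

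Markers of cell types were read beside these values. All 9 hepatocyte markers with a probe were above 25 units on every array, with ALB at 14421, 8938 and 12932 units and AFP at 7475, 5375 and 7793. These 2 were lower on the villin array than on the control array, but the markers did not share a direction. Log2 differences of the 9 ran from -0.56 (ALB) to 0.24 (TTR) there, with a median of -0.045 and 3 above 0. Over all genes 7193 of 15907 lay above 0. Of 8 stellate cell and fibroblast markers, 6 had a value on all arrays and their summed intensity was 1098, 1169 and 974 units, most of it from ACTA2 (530, 595 and 472) and RGS5 (463, 438 and 365). DES was at 65, 53 and 54 units and FAP at 15, 19 and 17. PDGFRA, at 3, 4 and 4 units, THY1, with no value on the control and villin arrays and 2 units on the third, and LRAT, with no value on any, were at or near the limit. PDGFRB was at 22, 60 and 60 units, in block 24, and passed 1.5-fold against the control array on both siRNA arrays, at 0.67 and 0.71 (0.48 and 0.41 after scaling). The endothelial markers summed to 76, 69 and 68 units and the immune markers to 539, 837 and 690. Most of the immune sum came from CD68 (281, 346 and 272) and LYZ (226, 455 and 383). LYZ passed 1.5-fold against the control array on both siRNA arrays, at 0.89 and 0.67 (0.94 and 0.74 after scaling). CD14 was at 15, 26 and 24 units and CD3E at 15, 10 and 11. PTPRC was at 2 units on the control array and without a value on the others. The part of these cell types in the matrix values was not tested.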

How the data were processed

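RNA of HepG2 cells was amplified and hybridised to one-colour (Cy5) arrays, per the labels' protocols. Per the file headers, the scanner files hold an intensity (the spot median) for each of 27456 spots, without normalisation. The authors' deposited table holds whole-number intensities, which equal the spot median minus the mean of 2680 blank spots (5% trimmed at each end) over a factor of 1.26, 1.60 or 1.34 per array, within 0.5 units. Probes without a value there were exactly those not 2 SDs above the blank mean or marked by the scanner. 

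The blank mean was subtracted, followed by normexp with an offset of 50 and quantile normalisation over the 3 arrays (limma 3.58.1, R 4.3.3). The offset shrinks differences of dim probes. Position scaling divided the signal by the local median deviation of an array from the mean of the 3 (11 columns by 5 rows within a block). The brightest probe of a gene had the highest mean deposited intensity. Differences of at least 1.5-fold among genes detected on both arrays were counted, with no test, since each group has 1 array. Values were given in full for genes past 1.5-fold as normalised or after position scaling, and for up to 6 genes of the other lists. Matrix genes and lists were chosen with earlier results of these data known. Of 20236 probes with a symbol, 17238 symbols were current in RefSeq (GRCh38.p14), 2899 were updated and 99 not matched. Promoter sequences are RefSeq's, and 40 of the 54 listed genes were matched in the table used. The background correction and quantile normalisation were run on simulated arrays that had spot and background noise but no effect of slide position. Position scaling was not part of that simulation. Tables were made in Python 3.11.15 with pandas 2.3.3 and numpy 2.4.6, and plots with matplotlib 3.10.9.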

Additional observations from a re-analysis of the deposited data

How the results depend on the processing

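TIMP1 and TIMP2 kept their direction and stayed past 1.5-fold in the 8 alternatives that could alter their values, with log2 differences from the control array of 0.73 to 3.51 and 0.62 to 0.81, as did TIMP1 between the siRNA arrays (0.68 to 3.42). The filters on dim probes and the mean of probes left these single bright probes as they were by construction. The highest TIMP1 values came with the scanner's background column. Large values were not limited to TIMP1 in that setting. On the villin array it gave 3.05 for LAMB1, 2.79 for FN1 and -1.17 for P4HA2, and on the PTK7-labelled array 4.26 for FN1. The number of matrix genes beyond 1.5-fold depended on the background correction. On the villin array it was 2 as reported, 15 (10 higher, 5 lower) with the authors' deposited intensities, 12 (7 and 5) with plain subtraction, 7 (6 and 1) with the background column, and 0 at 2-fold. On the PTK7-labelled array it was 0 as reported, 9 (3 and 6), 6 (1 and 5) and 4 (4 and 0) in the same first 3 settings. Between the siRNA arrays it was 1 as reported, 7 (6 and 1), 6 (5 and 1) and 6 (2 and 4) in these settings, 3 with median scaling, where LAMB1 and SPARC joined TIMP1, and 0 at 2-fold. Over all genes the share beyond 1.5-fold in these comparisons was likewise 16.3%, 16.2% and 9.62% with the deposited intensities. It was 13.3%, 12.8% and 6.06% with plain subtraction, and 7.06%, 8.60% and 7.37% with the background column. With median scaling 0.853% of all genes passed between the siRNA arrays. In the other alternatives (no correction, cyclic loess, position scaling, no or a stricter filter, mean of probes) the counts were those reported. Adding VCAN through its older symbol, chosen after seeing the data, gave 3 on the villin array, and 2 with position scaling. Position scaling from the brighter probes alone, also added later, changed no count. List medians moved by less than 0.1 in all alternatives. No paired analysis was possible because each group has 1 array. Dim probes, 28 of the 53 genes, lie where the offset and a few units of signal limit what could be seen.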
